A study of Mus musculus with 8 samples.

Results

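The 8 genes described here, Gria1, Gria2, Gria3, Gria4, Grik5, Grin2c, Grm3 and Grm5, code for receptors of the neurotransmitter glutamate that are known from glial cells. They were chosen by name from the 26 mouse glutamate receptor genes with their values in both comparisons of these libraries already known, so their levels and differences are a description and carry no test. All 8 were found among the 47729 genes of the neural stem cell (NSC) count table and the 40562 genes of the astrocyte count table. RNA was sequenced from cultured cells of WT mice and of S89G-DMP1 mice, a knock-in line in which serine 89 of dentin matrix protein 1 (DMP1), the site of its glycosaminoglycan chain, is replaced by glycine. The NSCs came from the labelled sub-ventrical zone and were grown as neurospheres, with 3 libraries per genotype. The astrocytes came from cortex and were grown in medium with fetal bovine serum, with 1 library per genotype. All mice were C57BL/6 and labelled as 10 weeks old.

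Glutamate receptors work either as ion channels or through G proteins. Gria1 to Gria4 code for the subunits of AMPA receptors, the fast glutamate-gated cation channels. Grik5 codes for a high-affinity subunit of kainate receptors, and Grin2c for an NMDA receptor subunit known from astrocytes and cerebellar granule cells. Grm5 codes for mGluR5, which acts through Gq and calcium release, and Grm3 codes for mGluR3, which acts through Gi and lowers cyclic AMP. In glial cells these receptors sense glutamate released by neurons, which the same cells take up through the transporters coded by Slc1a2 and Slc1a3.

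The AMPA subunits differ in a property that counts cannot show. In the pore of the Gria2 product a glutamine codon is recoded to arginine by the RNA editing enzyme Adarb1, and receptors with the edited subunit pass little calcium. The coding stretch around this site is shown because the balance between Gria2 and the other subunits is described below for both kinds of culture. The 4 stretches of 63 bases were read from the GENCODE M21 transcripts on build GRCm38 and lie in exon 11 of the transcript used, with the codon at the editing position in capitals.
Gria1: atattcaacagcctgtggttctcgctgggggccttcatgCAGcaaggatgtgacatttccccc
Gria2: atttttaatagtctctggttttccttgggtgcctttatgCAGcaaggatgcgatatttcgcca
Gria3: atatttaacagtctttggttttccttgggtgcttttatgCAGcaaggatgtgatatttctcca
Gria4: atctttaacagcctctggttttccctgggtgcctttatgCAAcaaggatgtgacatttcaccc
They lie at chr11:57243055-57243117 on the plus strand for Gria1, chr3:80706890-80706952 on the minus strand for Gria2, chrX:41610226-41610288 on the plus strand for Gria3 and chr9:4464116-4464178 on the minus strand for Gria4. Counted from the first methionine, the codon is number 600 in Gria1, 607 in Gria2, 612 in Gria3 and 608 in Gria4. All 4 genomic codons are glutamine codons. Of the 63 bases, Gria3 shares 57 with Gria2, Gria4 shares 54 and Gria1 shares 49. Gene counts do not record whether the Gria2 transcripts carried the edited codon.

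In NSCs, Grm5 was higher in S89G-DMP1 than in WT libraries, Grm3 and Gria4 were lower, and the other AMPA subunits lay in overlapping ranges. The values are read counts scaled to a common library total (CPM) and adjusted for library composition with TMM factors. Library totals were 2354615 to 2588130 counts in NSCs, and 13016924 (S89G-DMP1) and 14008670 (WT) counts in astrocytes. The labels do not say whether the NSC triplicates were separate cultures or animals. Within a genotype, the chi-square between libraries was 1.07 to 1.51 per gene, close to the value of 1 that counting alone gives, against 3.17 to 4.06 between genotypes, so the error values and p-values may measure technical spread only.

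Gria2 was the AMPA subunit gene with the highest level in NSCs. It measured 338, 327 and 333 CPM in the S89G-DMP1 libraries and 372, 327 and 329 CPM in the WT libraries. The ranges overlapped, and the highest value was that of WT replicate 1. The log2 fold change was -0.04 ± 0.06 (SE, 3 against 3 libraries). Gria3 measured 109, 133 and 114 CPM in S89G-DMP1 and 129, 116 and 117 CPM in WT, with a log2 fold change of -0.02 ± 0.08. These were the members with the smallest differences in NSCs. The sign of Gria2 turned when WT replicate 1 was left out (0.02). For Gria3 it turned without S89G-DMP1 replicate 1 (0.04) or 3 (0.005), or without WT replicate 1 (0.03).

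Gria1 and Gria4 had low counts in NSCs. Gria1 measured 16.8, 25.7 and 26.5 CPM in S89G-DMP1 and 19.0, 21.4 and 21.2 CPM in WT, so that the mutant libraries lay on both sides of the WT range (log2 fold change 0.17 ± 0.17). Gria4 measured 19.8, 18.8 and 12.4 CPM in S89G-DMP1 and 24.0, 27.6 and 22.0 CPM in WT. Every S89G-DMP1 library lay below every WT library, with a log2 fold change of -0.53 ± 0.17. The lowest value came from S89G-DMP1 replicate 3. Gria4 passed the call threshold with all 6 libraries and missed it without S89G-DMP1 replicate 3 (-0.35) or without WT replicate 2 (-0.44).

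The kainate subunit gene Grik5 measured 158, 148 and 131 CPM in S89G-DMP1 and 159, 171 and 163 CPM in WT. The ranges did not overlap, but the highest mutant library and the lowest WT library were nearly equal. The log2 fold change was -0.18 ± 0.07 and missed the threshold. Without S89G-DMP1 replicate 1 it passed, at -0.24. Grin2c was the member with the lowest level, at 6.32, 5.56 and 5.62 CPM in S89G-DMP1 and 5.06, 5.83 and 5.19 CPM in WT. Its ranges overlapped, and the log2 fold change of 0.12 ± 0.31 had the widest error of the members.

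The metabotropic receptor genes moved apart in NSCs. Grm5 measured 378, 353 and 365 CPM in S89G-DMP1 against 295, 270 and 293 CPM in WT. Every mutant library was above every WT library, with a log2 fold change of 0.35 ± 0.06. Grm3 measured 47.2, 46.2 and 43.3 CPM in S89G-DMP1 against 60.3, 62.9 and 59.5 CPM in WT. Every mutant library was below every WT library, with a log2 fold change of -0.42 ± 0.11. Both stayed past the threshold when any single library was left out. In the deposited TPM, however, Grm5 in S89G-DMP1 replicate 2 measured 78.6 TPM, below every WT library (98.2 to 107 TPM). Its log2 fold change there was 0.22. The Grm3 ranges stayed apart in TPM, at 33.6 to 36.0 in S89G-DMP1 and 44.0 to 48.8 in WT.

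**Figure D1:**
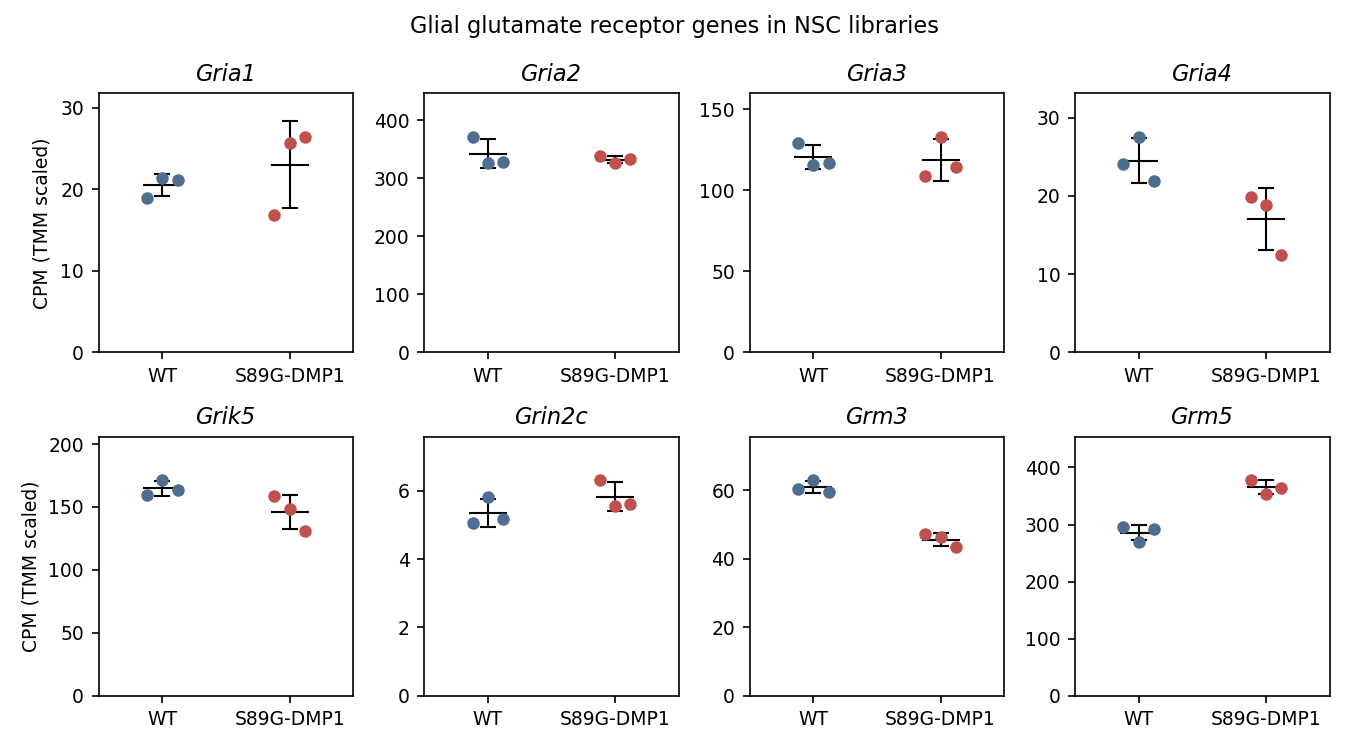
TMM-scaled CPM (y axis, from 0, own scale in each panel) of the 8 receptor genes in the 3 WT and 3 S89G-DMP1 NSC libraries, with each point a library and each bar the mean ± SD. Grm5 is higher and Gria4, Grik5 and Grm3 are lower in all 3 S89G-DMP1 libraries, and the other 4 genes overlap.

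All 8 members passed the filter on low counts in NSCs. With edgeR's quasi-likelihood test at an adjusted p under 0.05, 3 of the 8 were called, against 15.8% of the 11194 genes tested. Of these, 1 was higher (7.08% of all genes were called higher) and 2 were lower (8.76% of all genes were called lower). The ranges of 4 of the 8 did not overlap, against 30.7% of all genes tested. The median log2 fold change was -0.03 over the members and 0.00 over all genes tested. Since the members were chosen with these values known, the counts are given beside the background and nothing is read from them. DESeq2 called 1 of the 8, Grm5. Under limma on log2(TPM + 1) of the deposited TPM, a level scaled by transcript length, 0 were called and 1 had an unadjusted p under 0.05.

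The combined level of the 4 AMPA subunit genes lay in overlapping ranges in both NSC genotypes. Summed per length, it was 122 to 129 CPM per kilobase in S89G-DMP1 and 124 to 138 CPM per kilobase in WT. The levels of all 8 members summed to 1031 to 1073 CPM in S89G-DMP1 and 1002 to 1064 CPM in WT, so the total stayed in overlapping ranges while Grm5 and Grm3 moved in opposite directions.

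Levels of different genes were compared per kilobase of the transcript length behind the deposited astrocyte FPKM values. In WT NSCs, Gria2 stood at 82.6 ± 6.16 CPM per kilobase (SD, n = 3), followed by Grik5 at 42.9 ± 1.59, Gria3 at 35.0 ± 2.15 and Grm3 at 20.0 ± 0.590 CPM per kilobase. Gria1 at 5.99 ± 0.389 and Gria4 at 5.56 ± 0.645 CPM per kilobase overlapped each other, and Grin2c came last at 1.17 ± 0.0897. In S89G-DMP1 NSCs the order of these 7 genes by the same lengths was the same. The order of Gria1 and Gria4 in WT turned in the deposited TPM, where Gria4 averaged above Gria1 (12.2 ± 1.87 against 9.60 ± 0.574 TPM). In S89G-DMP1, Gria4 averaged below Gria1 there (8.65 ± 1.90 against 9.32 ± 2.49 TPM). The TPM ranges of the 2 genes overlapped in both genotypes. In S89G-DMP1, Grik5 at 38.0 ± 3.58 and Gria3 at 34.5 ± 3.72 CPM per kilobase overlapped, and Gria1 stood at 6.72 ± 1.56 and Gria4 at 3.86 ± 0.908 CPM per kilobase.

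The place of Grm5 in this order could not be settled. It had no astrocyte count, so no length could be taken from the deposited values. With the mean length of its annotated transcripts, 2.95 kilobases, it stood at 96.9 ± 4.69 CPM per kilobase in WT and 124 ± 4.20 in S89G-DMP1 NSCs, above Gria2. With its longest transcript, 8.05 kilobases, it stood at 35.5 ± 1.72 and 45.4 ± 1.54 CPM per kilobase, a length not comparable with those used for the other genes. In the deposited TPM, Grm5 averaged 102 ± 4.26 TPM in WT and 124 ± 40.5 TPM in S89G-DMP1, and Gria2 averaged 153 ± 16.8 and 149 ± 4.64 TPM.

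Gria2 held most of the AMPA subunit level in NSCs. Its share of the 4 subunits per length was 64.9%, 63.1% and 63.7% in the WT libraries and 66.5%, 60.9% and 64.7% in the S89G-DMP1 libraries. The means were 63.9% ± 0.931 in WT and 64.0% ± 2.84 in S89G-DMP1 (SD, n = 3), a difference within the spread. Gria3 held 27.1% ± 0.177 in WT and 27.5% ± 2.17 in S89G-DMP1. Gria4 held 4.32% ± 0.595 in WT and 3.08% ± 0.724 in S89G-DMP1, and Gria1 held 4.66% ± 0.562 and 5.35% ± 1.17.

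The astrocyte cultures had another balance. In the WT astrocyte library, Gria3 held 86.5% and Gria4 13.5% of the AMPA subunit level per length, while Gria1 held 0.0358% and Gria2 0.0592%. In the S89G-DMP1 astrocyte library, Gria3 held 49.8%, Gria1 41.2%, Gria4 7.21% and Gria2 1.79%. As a share of reads, Gria2 took 2 of 2908 AMPA subunit reads in WT (0.0688%, exact 95% interval 0.00833% to 0.248%) and 145 of 6862 in S89G-DMP1 (2.11%, 1.79% to 2.48%). These intervals cover counting error only. The NSC and astrocyte tables were made with different aligners and counted separately, so their shares stand side by side without a test.

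**Figure D2:**
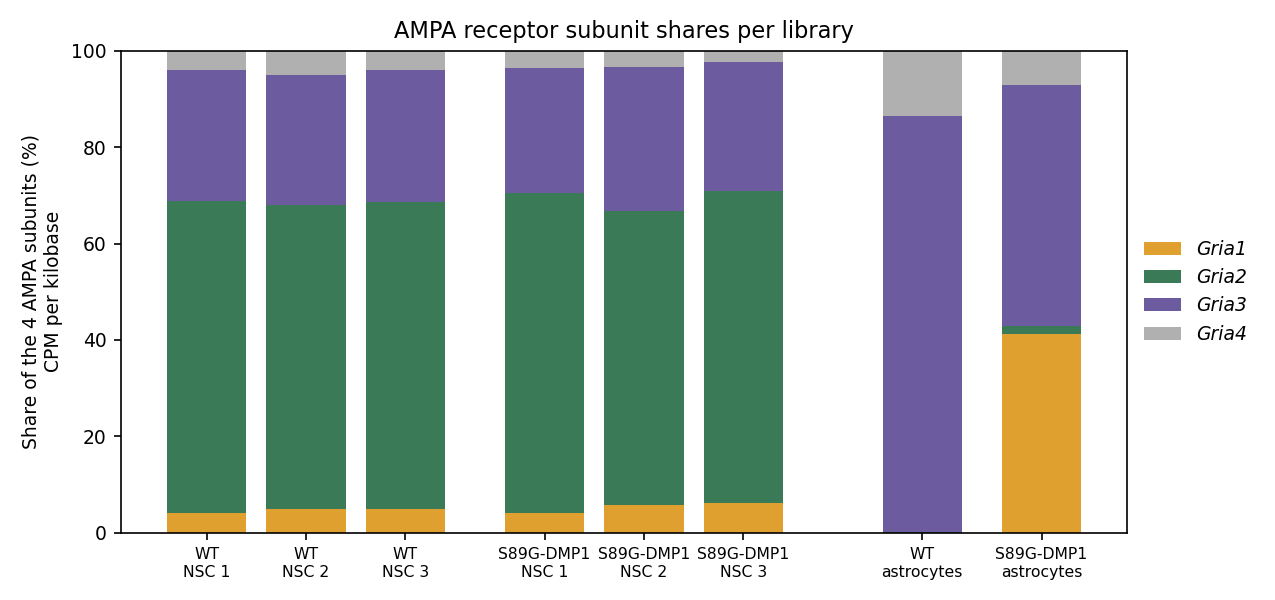
Share of each AMPA receptor subunit gene (percent of the summed CPM per kilobase, y axis) in each of the 6 NSC and 2 astrocyte libraries, as stacked bars that add up to the whole. Gria2 fills most of every NSC bar, Gria3 fills most of the WT astrocyte bar, and Gria1 and Gria3 together fill most of the S89G-DMP1 astrocyte bar.

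The astrocyte comparison rests on 1 library per genotype and has no replicate check and no test. Gria1 had 2753 counts (191 CPM) in the S89G-DMP1 library and 1 count (0.0790 CPM) in the WT library. The ratio of the CPM values was 2420, with an exact 95% counting interval of 434 to 95627. Gria2 had 145 counts (10.1 CPM) and 2 counts (0.158 CPM), a ratio of 63.7 with an interval of 17.3 to 531. Both were under the limit of detection in WT, where 3 counts correspond to 0.237 CPM, so the size of either ratio is uncertain.

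The other AMPA subunits were present in both astrocyte libraries and differed by less than 2-fold. Gria3 had 3344 counts (232 CPM) in S89G-DMP1 and 2422 counts (191 CPM) in WT, a ratio of 1.21 (1.15 to 1.28). Gria4 had 620 counts (43.0 CPM) and 483 counts (38.1 CPM), a ratio of 1.13 (1.00 to 1.27). Grik5 had 1824 counts (127 CPM) and 604 counts (47.7 CPM), a ratio of 2.65 (2.42 to 2.92). Grik5 was thus at least 2-fold higher in the S89G-DMP1 astrocyte library, while it lay below WT in the S89G-DMP1 NSC libraries without being called.

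The remaining members were at or under the limit of detection in astrocytes. Grin2c had 0 counts in S89G-DMP1 and 3 in WT. Grm3 had 1 count and 0 counts. Grm5 had 0 counts in both libraries, which allows up to 0.208 CPM in S89G-DMP1 and 0.237 CPM in WT. No fold change is given for these 3 genes. In NSCs, by contrast, Grm5 was among the members with the highest CPM.

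**Figure D3:**
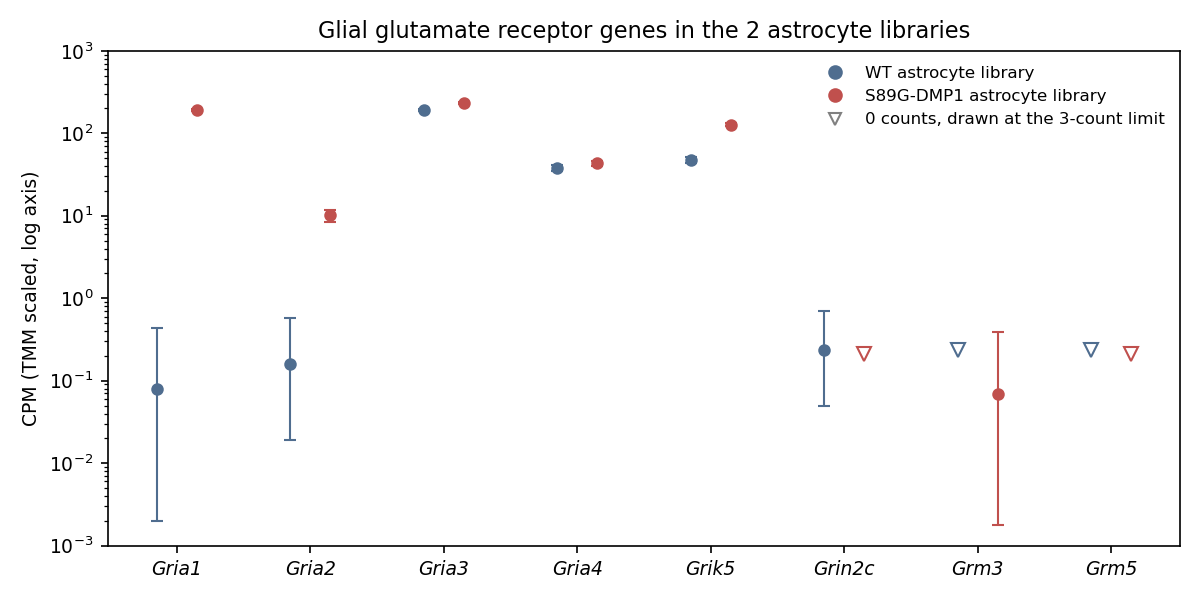
TMM-scaled CPM (log y axis) of the 8 receptor genes in the WT and the S89G-DMP1 astrocyte library, with exact 95% Poisson intervals as bars and open triangles at the 3-count limit for 0 counts. Gria1 stands at 0.0790 in WT and 191 in S89G-DMP1, Gria3 and Gria4 lie near each other in both, and Grin2c, Grm3 and Grm5 are at 3 counts or fewer.

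Of the 8 members, 5 had at least 10 counts in either astrocyte library. Among these, 3 (Gria1, Gria2 and Grik5) were at least 2-fold higher in S89G-DMP1, where 17.3% of the 15680 genes were, and 0 were at least 2-fold lower, where 12.8% of genes were. In either direction 30.1% of genes differed at least 2-fold. The median log2 ratio was 1.41 over the 5 members and 0.01 over all genes. Gria1 and Gria2 passed the count filter through the S89G-DMP1 library alone, so the members' median depends on that filter. The members with at least 10 counts in both libraries were Gria3 (0.28), Gria4 (0.17) and Grik5 (1.41). Of all genes past 2-fold, 57.4% were higher in S89G-DMP1 with TMM factors and 69.7% with library size alone, a scaling that moved the median of all genes to 0.30. Gria3 then had a log2 ratio of 0.57 in place of 0.28, and Gria4 0.46 in place of 0.17, about as far as the median moved.

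The astrocyte libraries differed in the markers of several cell types, and in bulk RNA fewer cells of a type cannot be told apart from less RNA per cell. Of the astrocyte markers, 10 of 13 counted were at least 2-fold higher in S89G-DMP1 and 2 were lower, with a summed level of 1402 CPM against 221 CPM in WT. Aldh1l1 had 1792 counts in S89G-DMP1 and 47 in WT, Mlc1 had 2399 and 2, and Gfap, named because the labels use its protein to identify the cells, had 901 and 90. Gjb6 was at 0 counts in S89G-DMP1 and 1 count in WT, and Ntsr2 at 0 counts in WT. Neural progenitor markers summed to 2454 CPM in S89G-DMP1 and 879 CPM in WT, with Nes at 19706 and 9028 counts, Fabp7 at 4950 and 23, and Sox1 at 655 and 0. Fibroblast markers ran the other way, with 6 of 10 at least 2-fold lower in S89G-DMP1 and sums of 2559 CPM against 8769 CPM in WT. There Tnxb had 86 counts in S89G-DMP1 and 31753 in WT, and Col1a1 had 22501 and 27329. The part of these marker levels in the differences of Gria1, Gria2 and Grik5 was not tested.

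Other cell types were represented in both astrocyte libraries. Mural cell markers summed to 3813 CPM in S89G-DMP1 and 2399 CPM in WT. The higher sum came from Acta2 (35539 counts in S89G-DMP1 and 9152 in WT), the 1 gene of 7 that was at least 2-fold higher, whereas 3 were lower, Rgs5 (39 and 2431), Myh11 (37 and 402) and Des (17 and 379). Tagln had 18725 and 17464 counts, and Kcnj8 had 0 in both. Microglia markers summed to 665 and 460 CPM, with 3 of 7 at least 2-fold higher and 1 lower. Csf1r had the highest level in both libraries (245 and 191 CPM). Next came Cx3cr1 in S89G-DMP1 (165 and 25.3 CPM) and Tmem119 in WT (48.5 and 113 CPM), and Itgam had 142 and 82.5 CPM. Oligodendrocyte lineage markers summed to 339 and 191 CPM, with 3 of 8 at least 2-fold higher and 2 lower. Olig1 had 2691 counts in S89G-DMP1 and 4 in WT, and Olig2 had 782 and 3, while Pdgfra had 100 and 1755, Gpr17 had 6 and 33, and Mog had 0 counts in S89G-DMP1. Neuron markers summed to 304 and 99.1 CPM, 4 of 6 at least 2-fold higher and 1 lower, with Map2 at 2772 and 105 counts, Elavl3 at 31 and 5, and Dcx at 0 counts in WT. Endothelial markers summed to 70.9 and 193 CPM, with 1 of 5 at least 2-fold higher and 3 lower. The larger WT sum came from Cdh5 (23 counts in S89G-DMP1 and 1917 in WT), while Flt1 (790 and 404) and Kdr (184 and 76) ran the other way, Cldn5 was at 0 counts in both and Tie1 at 0 in S89G-DMP1. Hes5, a progenitor marker, was at 0 counts in both.

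Marker levels also moved with genotype in NSCs. Astrocyte markers summed to 1790 to 1871 CPM in S89G-DMP1 and 1055 to 1070 CPM in WT. Of 9 tested, 6 were higher and 0 were lower (0 also at an unadjusted p under 0.05, and DESeq2 called 6), while Gjb6 was at 0 counts throughout. Aldh1l1 averaged 629 ± 2.28 CPM in S89G-DMP1 and 307 ± 7.07 CPM in WT (SD, n = 3), and Mlc1 286 ± 12.2 and 175 ± 3.35 CPM. Neural progenitor markers summed to 4746 to 4788 CPM in S89G-DMP1 and 4323 to 4552 CPM in WT, with 3 higher and 1 lower of 9 tested. Neuron markers summed to 1253 to 1276 and 1228 to 1374 CPM, with 2 of 6 tested lower. Oligodendrocyte lineage markers summed to 3737 to 3901 and 3588 to 3869 CPM, with 1 of 5 tested lower. Mural cell markers summed to 111 to 136 and 176 to 179 CPM and fibroblast markers to 69.3 to 78.2 and 153 to 164 CPM. Each list had 1 gene tested, which was lower and made up nearly all of its sum. Cspg4 averaged 118 and 174 CPM, and Thy1 69.1 and 151 CPM. The other mural cell and fibroblast markers were too low to be tested, with Abcc9, Dcn, Col1a2 and Lum at 0 counts throughout. Endothelial markers reached 10.5 CPM with 1 gene tested, Flt1, which was higher, and Cdh5 and Cldn5 were at 0 counts throughout. Microglia markers were under 1 CPM in every NSC library, and 5 of the 7 were at 0 counts throughout: Csf1r, Itgam, Cx3cr1, Tmem119 and Ptprc. Their part in the NSC differences of Grm5, Grm3 and Gria4 was not tested.

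The knock-in changes a codon and does not remove the transcript, so the counts of Dmp1 do not check the labels. Dmp1 had 6, 3 and 5 counts in the S89G-DMP1 NSC libraries and 18, 21 and 16 in WT, a log2 fold change of -1.90 ± 0.38 (edgeR quasi-likelihood test, adjusted p = 0.00013). In astrocytes it had 119 counts in S89G-DMP1 and 2 in WT.

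Among the other 18 glutamate receptor genes, 9 were tested in NSCs, and 2 fell. Grik3, a kainate receptor subunit gene, measured 5.90, 8.13 and 6.82 CPM in S89G-DMP1 and 9.69, 13.6 and 13.2 CPM in WT, without overlap (log2 fold change -0.81 ± 0.25, edgeR adjusted p = 0.0157). Grin3a, coding for an NMDA receptor subunit that binds glycine, measured 53.1, 56.9 and 57.8 CPM in S89G-DMP1 and 74.6, 68.0 and 69.1 CPM in WT, also without overlap (-0.33 ± 0.10, adjusted p = 0.0134). No receptor gene outside the members was called higher by edgeR, with 1 at an unadjusted p under 0.05, and DESeq2 called 0 of the 9 in either direction. Grik3 missed the threshold without S89G-DMP1 replicate 1 (-0.71) or 3 (-0.80), or without WT replicate 2 (-0.72) or 3 (-0.75). Grin3a missed it without S89G-DMP1 replicate 1 (-0.30) or WT replicate 1 (-0.29), and its log2 fold change was 0.10 in the deposited TPM.

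**Figure D4:**
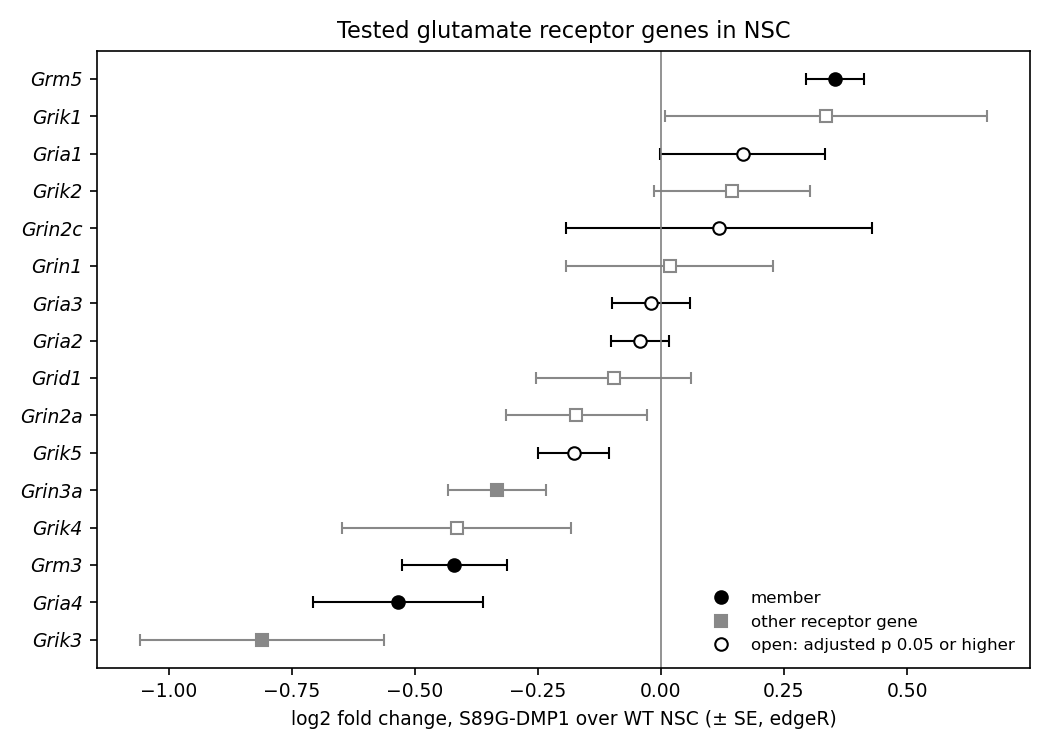
The edgeR log2 fold change of S89G-DMP1 over WT NSCs (x axis, bars ± SE) for the 8 members (black circles) and 8 of the 9 other glutamate receptor genes tested (grey squares), with filled symbols for an adjusted p under 0.05. Grm5 is the only filled symbol above 0, and Grik3, Gria4, Grm3 and Grin3a are the filled symbols below 0.

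The proteins that work with these receptors were followed in lists. In NSCs, 93 such genes were listed, the 18 receptors above included, 67 were tested and 9 were called, which is 13.4% against the 15.8% of all genes tested. Of the 13 auxiliary subunit genes tested, 1 rose and 1 fell. Both code for transmembrane AMPA receptor regulatory proteins. Cacng4 measured 139, 134 and 140 CPM in S89G-DMP1 and 117, 117 and 118 CPM in WT (log2 fold change 0.23 ± 0.07, edgeR adjusted p = 0.0233). Cacng7 measured 117, 122 and 109 CPM in S89G-DMP1 and 158, 139 and 156 CPM in WT (-0.38 ± 0.07, adjusted p = 0.000103). The groups did not overlap for either gene. Cacng4 missed the threshold without S89G-DMP1 replicate 1 (0.22) or 3 (0.21), or without WT replicate 2 (0.22) or 3 (0.23), and with DESeq2 (adjusted p = 0.208), and its log2 fold change was -0.25 in the deposited TPM.

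Of the 19 scaffold and clustering genes tested in NSCs, 1 rose and 1 fell. Nptx1, which codes for a secreted pentraxin that clusters AMPA receptors, measured 413, 399 and 352 CPM in S89G-DMP1 and 303, 349 and 325 CPM in WT (log2 fold change 0.25 ± 0.06, edgeR adjusted p = 0.00167). Its lowest mutant and highest WT libraries nearly met, and its log2 fold change was -0.37 in the deposited TPM. Dlgap4, coding for a postsynaptic scaffold protein, measured 145, 154 and 138 CPM in S89G-DMP1 and 168, 182 and 198 CPM in WT (-0.33 ± 0.07, adjusted p = 0.000367).

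Of the 12 genes of glutamate transport and metabolism tested in NSCs, 2 rose. Slc1a3, coding for the glial glutamate transporter GLAST, measured 1050.5, 1023 and 1070.1 CPM in S89G-DMP1 and 885, 927 and 918 CPM in WT (log2 fold change 0.20 ± 0.05, edgeR adjusted p = 0.0011). Slc25a18, a mitochondrial glutamate carrier gene, measured 120, 133 and 127 CPM in S89G-DMP1 and 99.0, 107 and 109 CPM in WT (0.26 ± 0.08, adjusted p = 0.0116). It missed the threshold without S89G-DMP1 replicate 2 (0.23) or WT replicate 1 (0.22), and with DESeq2 (adjusted p = 0.144). None of the 12 was called lower by edgeR, with 0 at an unadjusted p under 0.05 in that direction, and DESeq2 called 1 in all.

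Of the 12 metabotropic signal transduction genes tested in NSCs, 1 fell. Gnai2, coding for a Gi alpha subunit, measured 518, 474 and 456 CPM in S89G-DMP1 and 523, 554 and 570 CPM in WT (log2 fold change -0.19 ± 0.05, edgeR adjusted p = 0.011). It missed the threshold without S89G-DMP1 replicate 2 (-0.17) or 3 (-0.15), or without WT replicate 3 (-0.16), and with DESeq2 (adjusted p = 0.0525). Of the 2 RNA editing enzyme genes tested, edgeR called 0, with 0 at an unadjusted p under 0.05, and DESeq2 called 0. Adarb1, whose product recodes the Gria2 codon shown above, measured 26.1, 37.2 and 30.5 CPM in S89G-DMP1 and 30.3, 39.2 and 30.4 CPM in WT, with overlapping ranges. The median log2 fold change was -0.10 over the other receptors, -0.06 over auxiliary subunits, -0.01 over scaffolds, 0.09 over transport and metabolism, -0.02 over metabotropic signal transduction and 0.04 over the editing enzymes.

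In astrocytes, more of the other receptor genes were higher than lower in the S89G-DMP1 library. Of 12 with at least 10 counts in either library, 8 were at least 2-fold higher, 3 were at least 2-fold lower and 1 differed by less, with a median log2 ratio of 1.23. Grid1, which codes for a delta receptor, had 134 counts in S89G-DMP1 and 3 in WT, a CPM ratio of 39.3 (13.2 to 193). Grin2a, an NMDA receptor subunit gene, had 111 counts and 6 counts, a ratio of 16.3 (7.24 to 45.3). In the other direction, Grik3 had 219 counts in S89G-DMP1 and 1325 in WT, 6.88-fold lower (5.96 to 7.98). Grin2d had 73 and 239 counts, 3.72-fold lower (2.85 to 4.91), and Grin1, the gene of the obligatory NMDA receptor subunit, had 5 and 26 counts, 5.92-fold lower (2.24 to 19.7). Grik3 was thus lower in S89G-DMP1 in both cell types, and Grin3a was lower in NSCs and had a log2 ratio of 1.23 in astrocytes.

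Among the 14 auxiliary subunit genes with enough astrocyte counts, 9 were higher by 2-fold or more and 1 was lower by as much. Over all genes, 17.3% were higher and 12.8% lower by as much. The median log2 ratio of the list was 2.77. Several of those higher, Cacng4 and Shisa9 among them, passed the count filter through the S89G-DMP1 library alone, as Neto1 did through WT. The count and the median therefore depend on that filter. Shisa9, coding for an AMPA receptor auxiliary subunit, had 431 counts in S89G-DMP1 and 5 in WT, a ratio of 75.8 (32.2 to 235). The kainate receptor auxiliary subunit genes stood apart from each other, since Neto2 had 1996 and 87 counts, a ratio of 20.2 (16.3 to 25.3), and Neto1 had 4 and 121 counts, 34.4-fold lower (13.1 to 128). Cacng4 had 37 counts in S89G-DMP1 and 0 in WT, at least 10.8-fold higher against a limit of 3 counts in the WT library.

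In astrocytes, more scaffold genes were lower than higher in the S89G-DMP1 library. Of 20 counted, 2 were at least 2-fold higher and 6 were at least 2-fold lower, against 17.3% and 12.8% of all genes. The median log2 ratio was -0.46. Its size depends on the scaling, since library size alone moved the median of all genes from 0.01 to 0.30. Dlgap1 had 56 and 6 counts, a ratio of 8.21 (3.54 to 23.3), and Grip1, whose product binds the Gria2 and Gria3 subunits, had 292 and 77 counts, a ratio of 3.33 (2.59 to 4.34). Grasp, Nptx1 and Shank1 had 40, 113 and 41 counts in S89G-DMP1 and 189, 386 and 141 in WT, so that they were 5.37-fold, 3.89-fold and 3.91-fold lower.

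Genes of glutamate transport and metabolism split into groups in astrocytes. Of 14 counted, 5 were at least 2-fold higher and 3 were at least 2-fold lower, against 17.3% and 12.8% of all genes. Slc1a3 had 3877 counts in S89G-DMP1 and 8 in WT, a ratio of 426 (216 to 988). Slc38a3, a glutamine transporter gene, had 938 and 9 counts (91.6, 48.1 to 201), and Slc25a18 had 462 and 15 counts (27.1, 16.2 to 48.8). Slc7a11, coding for the cystine-glutamate exchanger, had 133 counts in S89G-DMP1 and 3714 in WT, 31.8-fold lower (26.7 to 38.1). Slc1a6, another glutamate transporter gene, had 40 and 725 counts, 20.6-fold lower (15.0 to 29.1). Got1, an aspartate aminotransferase gene, had 407 and 770 counts, 2.15-fold lower (1.91 to 2.43), and with library size alone its log2 ratio of -0.81 stayed under 2-fold. The median log2 ratio of the list was -0.17, less than the shift of all genes under library size alone.

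Among the 14 metabotropic signal transduction genes with enough astrocyte counts, 2 were higher by 2-fold or more and 4 were lower by as much. Over all genes, 17.3% were higher and 12.8% lower by as much. The median log2 ratio of the list was -0.46, and its size depends on the scaling as for the scaffolds. Plcb1, a phospholipase C gene of the Gq pathway, had 772 and 198 counts, a ratio of 3.43 (2.93 to 4.03), and Gnao1, the Go alpha subunit gene, had 1343 and 448 counts, a ratio of 2.64 (2.37 to 2.94). Rgs4, a regulator of G protein signalling, had 26 and 353 counts, 15.4-fold lower (10.4 to 24.0). Itpr1, coding for a receptor of inositol trisphosphate, had 1969 and 5228 counts, 3.02-fold lower (2.87 to 3.18), and Gnai1 had 331 and 821 counts, 2.82-fold lower (2.48 to 3.22). Both editing enzyme genes with enough counts differed by less than 2-fold, and Adarb1 had 159 and 183 counts.

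**Figure D5:**
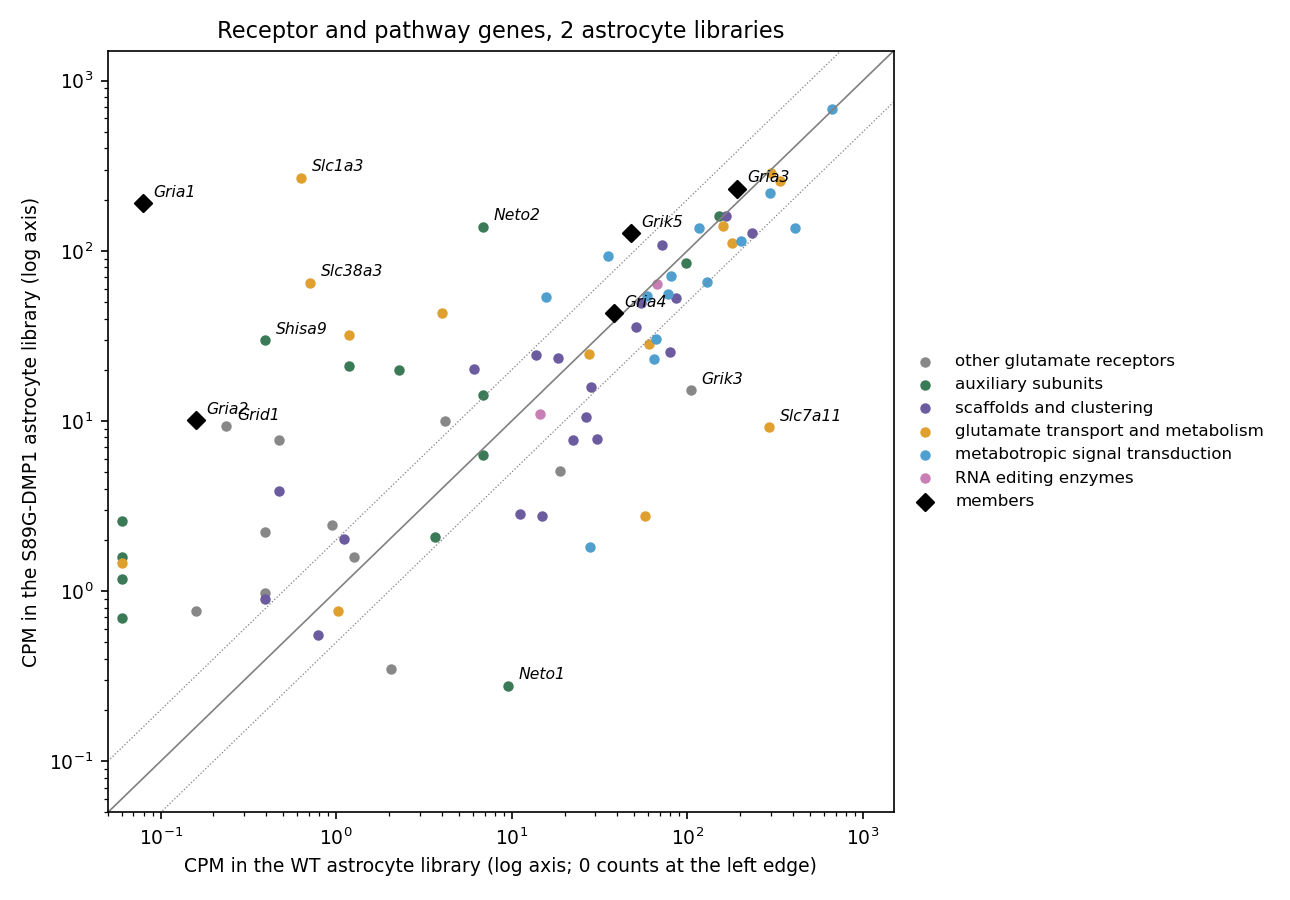
CPM in the S89G-DMP1 (y axis) against the WT astrocyte library (x axis, both log) for the members (black diamonds) and other listed genes that reached 10 counts, coloured by list, with a line of equality, dotted lines at 2-fold and genes at 0 WT counts on the left edge. Gria1, Gria2, Slc1a3, Slc38a3 and Shisa9 lie far above the line, Slc7a11 and Neto1 far below it, and Gria3 and Gria4 within the dotted lines.

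Gria2, the member with the highest CPM averaged over all 6 NSC libraries (Grm5 was higher in S89G-DMP1), was set beside the other genes by its pattern over the 6 NSC libraries. Among the 8082 genes that averaged 50 counts or more, Thap2 had the highest Pearson correlation of log2 CPM with it (r = 0.987), followed by Manea (r = 0.971) and Zbtb38 (r = 0.962). These correlations describe 6 libraries and carry no test. The spread of Gria2 over them came mainly from WT replicate 1, and the log2 fold changes of these 3 genes between genotypes were -0.10, -0.07 and -0.07.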

How the data were processed

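NSC gene counts were deposited by the authors as raw counts, with TPM beside them. The labels name HISAT2, StringTie and featureCounts, without versions, and build GRCm38. For astrocytes the authors deposited raw counts and FPKM made with TopHat2 2.0.9 and Bowtie2 2.0.6. Neither set gives strandedness here. Lengths implied by the FPKM matched the mean transcript length of the annotation for 5 of the 7 members that had counts. The members and lists were chosen with earlier results of these data known. NSC counts were fitted with edgeR 4.0.16 (filterByExpr, TMM, quasi-likelihood test, genotype only, Benjamini-Hochberg over all genes tested), checked on data with known changes. DESeq2 1.42.0 and limma 3.58.1 (log2(TPM + 1)) were alternatives, in R 4.3.3. Astrocyte CPM used TMM factors, a prior count of 2 on the log2 scale and a minimum of 10 counts in either library. Ratios from 1 to 3 counts carry exact 95% counting intervals, and a fold against 0 counts is a bound at 3 counts. A library held 2354615 to 14008670 counts. Named genes were all members, listed genes called in NSCs, the 3 largest and 3 smallest log2 ratios per list among those at least 2-fold different in astrocytes, the 2 markers with the highest mean CPM per list, markers at 0 counts in a cell type or library, Dmp1, and the 3 genes most like Gria2. Adarb1, Gfap, Cspg4, Thy1, Rgs5, Myh11, Des, Pdgfra, Gpr17, Kdr, Grik4, Cnih2, Cpt1c, Glul, Glud1, Ncdn and Adar were named outside this rule, after their values were seen. Some genes that the rule names are not reported here. Sequences and positions came from GENCODE M21.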

Additional observations from a re-analysis of the deposited data

Results flagged for a closer look

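Of the members and of the listed genes called in NSCs, 5 had all S89G-DMP1 NSC libraries on the other side of WT than the sign of the astrocyte ratio. The difference between the cell types was not tested, since the astrocytes had 1 library per genotype and were counted separately. Among the members these were Gria4, with a log2 fold change of -0.53 in NSCs and a log2 ratio of 0.17 in astrocytes, and Grik5, with -0.18 and 1.41. The listed genes were Grin3a (-0.33 and 1.23), Nptx1 (0.25 and -1.94) and Gnai2 (-0.19 and 0.02). For Gnai2 the astrocyte ratio of 1.01 had a counting interval of 0.986 to 1.04, and for Gria4 the ratio of 1.13 had an interval from 1.00 to 1.27, so that neither shows a move in the astrocytes. Outside the genes called in NSCs and the markers, Grik4 (-0.42 and 1.23), Slc38a3 (-0.16 and 6.25) and Got1 (0.12 and -1.10) had the same arrangement. So had Shisa9 and Slc1a6, which were too low in NSCs to be tested. With astrocyte ratios under 2-fold, Cnih2, Cpt1c, Glul, Glud1, Ncdn and Adar had it too.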

How the results depend on the processing

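In NSCs, DESeq2 called 745 genes, 1 member and 4 listed genes, against 1773, 3 and 9 with edgeR, and limma on log2(TPM + 1) called 55, 0 and 0, with 1994 genes at an unadjusted p under 0.05. RLE factors, library size alone and the 2 other filters kept the 3 members Gria4, Grm3 and Grm5 called. Leaving out 1 library gave 1363 to 1659 genes, 2 to 4 members and 7 to 9 listed genes. Same-numbered libraries showed no clear shared deviation (r of 0.0546, 0.0137 and 0.000136 over 8082 genes). S89G-DMP1 replicates 1 and 2 and WT replicate 1 correlated best with their own number, and S89G-DMP1 replicate 3 and WT replicates 2 and 3 with another. Since libraries of a genotype differed by little more than counting error, these values cannot tell whether the numbers pair the samples. A replicate block called 1845 genes, the same 3 members and 10 listed genes. Signs turned under limma for Gria1 (-0.065), Grin2c (-0.026), Grin3a (0.10), Cacng4 (-0.25) and Nptx1 (-0.37), and with a library left out for Gria2 (-0.077 to 0.020) and Gria3 (-0.11 to 0.039). The causes were not tested. Under other scalings, levels, filters or prior counts, 11 of 28 log2 ratios of members in astrocytes lay outside the counting interval of the main ratio. In astrocytes, asking for 10 counts in both libraries left fewer genes, with 3066 genes, 1 member (Grik5) and 26 listed genes at least 2-fold different, against 4723, 3 and 43. That list alternative and the list alternatives in NSCs were chosen after seeing the data. Without length, Gria2 held 67.7% (S89G-DMP1) and 67.4% (WT) and Gria3 24.1% and 23.7% in NSCs, and Gria3 83.3% in WT astrocytes; in deposited TPM Gria3 held 26.1% in WT NSCs. At this depth 3 counts are 1.17 to 1.28 CPM in NSCs, so Grin2c at 5 to 6 CPM could not show a small difference.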
